A study of Mus musculus with 16 samples.

Results

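The genes described here were taken as markers of the collecting duct, which descends from the ureteric bud, and of the urothelium, the urinary tract lining. Whether their RNA is confined to these cells was not measured. The 36 members were chosen by name from what is known of principal cells, intercalated cells, uroplakins and epithelial keratins. The rule used no measured value, but the choice was made with earlier results of these data known. Every probe whose RefSeq accession belongs to a member was taken, which gave 46 probes of the 56605 on the array. Of the 36 members, 31 passed the filter on dim probes and are among the 15646 genes tested.

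The collecting duct recovers water and sodium and secretes acid or base. Its principal cells carry aquaporins and the epithelial sodium channel under the control of vasopressin and aldosterone, and its intercalated cells carry proton pumps and anion exchangers. Uroplakins form the plaques of the urothelial surface. Ezh1 and Ezh2 are the alternative catalytic subunits of Polycomb repressive complex 2, which methylates lysine 27 of histone H3 and silences developmental genes, most of them with CpG-rich promoters.

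The study measured total RNA from whole kidneys of C57BL/6 mouse embryos at embryonic day 17.5 on 16 Agilent arrays with 2 dyes, 4 per genotype. The groups are control (wild type for both genes), Ezh2-KO (homozygous Ezh2 deletion in Six2-positive nephron progenitors, Ezh1 wild type), Ezh1-het (the same Ezh2 deletion with 1 germline Ezh1 allele lost) and double-KO (the same Ezh2 deletion with both germline Ezh1 alleles lost). The driver of the Ezh2 deletion acts in nephron progenitors, and the collecting duct does not descend from them. By lineage its cells should therefore keep Ezh2 and carry only the germline Ezh1 change, but Ezh2 was not measured in duct cells alone. No group had an Ezh1 loss without the Ezh2 deletion, so an effect of Ezh1 in the duct cells and an effect of the mutant neighbouring nephrons cannot be told apart. Whole-kidney RNA also holds that of the Ezh2-deleted nephron cells, so member RNA made in those cells cannot be told apart from either. The labels call the control samples kidney pairs and call all samples biological replicates.

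On every array the labelled sample was read in Cy5 against control 1 RNA in Cy3, with no dye swap, so every level below is a log2 ratio to control 1. The control 1 array compared that RNA with itself, and on it the members lay between -0.19 for Aqp3 and 0.41 for Trp63. Ezh1 had mean levels of -0.08 for control, 0.05 for Ezh2-KO, -1.13 for Ezh1-het and -4.55 for double-KO. One of 5 Ezh2 probes averaged 0.09 in control and -3.32, -3.44 and -3.09 in the mutant groups in that order, and the means of the other 4 lay between -0.45 and 0.29 in all groups. Between 53.13% and 63.43% of probes were well above background on each array, the lowest share on control 2. Slide 1 held replicates 1 and 2 of every group and slide 2 held replicates 3 and 4.

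The markers of the labelled tissue were mostly detected. Aqp2, Aqp3, Gata3, Tfcp2l1 and Foxi1 were well above background on 16 of 16 arrays, Atp6v1b1 on 7 and Upk3a on 6. Upk2 was above background on 2 arrays. The other members that did not pass the filter were the vasopressin receptor Avpr2 (1 array), the proton pump subunit Atp6v0d2 (3 arrays at its better probe), Upk1b (1 array at its better probe) and Krt20 (3 arrays), and they were not well above background in enough samples to be tested. In whole kidneys, fewer cells of a type and less RNA per cell cannot be told apart.

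Some members have known partners or roles. Krt8 and Krt18 pair into the filaments of simple epithelia, Tfcp2l1 is a transcription factor of the collecting duct, and Upk1a is a tetraspanin of the uroplakin plaque. RefSeq promoter windows (assembly GRCm38.p6, 250 bases before to 50 after the annotated start) were given for 22 members in 23 windows, and Krt19 is not among these. The 4 windows below are shown because Upk1a passed a test below, Krt8 and Krt18 are partners, and Tfcp2l1 is one of the most variable members, with CpG dinucleotides in capitals and each strand read 5′ to 3′. They lie at chr15:102004293-102004592 (minus strand, Krt8), chr15:102027966-102028265 (plus strand, Krt18), chr1:118627695-118627994 (plus strand, Tfcp2l1) and chr7:30612685-30612984 (minus strand, Upk1a).
Krt8: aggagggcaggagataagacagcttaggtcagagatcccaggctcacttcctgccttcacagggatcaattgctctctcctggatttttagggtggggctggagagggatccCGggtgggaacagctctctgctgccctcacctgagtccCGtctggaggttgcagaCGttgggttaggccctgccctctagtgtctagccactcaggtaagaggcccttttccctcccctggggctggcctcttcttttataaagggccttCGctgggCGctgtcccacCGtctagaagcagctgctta
Krt18: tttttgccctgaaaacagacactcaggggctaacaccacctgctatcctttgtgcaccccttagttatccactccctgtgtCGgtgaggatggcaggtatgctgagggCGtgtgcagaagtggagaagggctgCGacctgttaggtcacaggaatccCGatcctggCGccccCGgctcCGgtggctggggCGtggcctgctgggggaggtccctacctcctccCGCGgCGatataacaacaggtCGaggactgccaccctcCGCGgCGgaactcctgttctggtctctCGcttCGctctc
Tfcp2l1: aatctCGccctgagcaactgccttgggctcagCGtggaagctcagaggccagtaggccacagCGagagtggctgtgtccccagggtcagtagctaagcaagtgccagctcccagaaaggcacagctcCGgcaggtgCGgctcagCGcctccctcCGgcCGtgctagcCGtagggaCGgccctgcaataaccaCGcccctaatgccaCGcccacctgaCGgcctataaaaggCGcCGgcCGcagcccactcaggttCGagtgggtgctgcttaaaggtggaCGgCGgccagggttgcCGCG
Upk1a: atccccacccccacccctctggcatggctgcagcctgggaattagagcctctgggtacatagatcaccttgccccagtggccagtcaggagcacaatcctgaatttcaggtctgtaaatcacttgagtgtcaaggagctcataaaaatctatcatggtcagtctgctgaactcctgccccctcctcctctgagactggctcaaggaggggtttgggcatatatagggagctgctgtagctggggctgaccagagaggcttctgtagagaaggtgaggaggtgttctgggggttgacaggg

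The Upk1a window held 0 CpG, that of Krt8 held 6, that of Krt18 held 17 and that of Tfcp2l1 held 21. Among all member windows, that of the homeobox gene Emx2 held the most CpG, 26, and that of Gata3 held 22. The median was 9 CpG over the 23 member windows and 7 over 32851 windows of all genes, while the median ratio of observed to expected CpG was 0.3606 for members and 0.3836 for all windows. The GATA letters AGATAA or TGATAA, sought on both strands, were in 6 of 23 member windows (26.09%) and in 18.61% of all windows. The TATA letters TATAAA were in 6 member windows, 26.09% against 13.62% of all windows. The ETS letters GGAAGT were in 2 member windows, 8.696% against 23.77% of all windows, and the forkhead letters TGTTTAC or TGTTTGC were in 2, 8.696% against 8.478%. The grainyhead letters AACCGGTT were in 0 member windows and 0.1461% of all windows. These letters were chosen after expression values were seen, and a match is a description of the window only.

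Before any comparison, the arrays themselves differed in these genes. The mean level of the 31 measured members was -0.846 on control 3 and -0.845 on Ezh2-KO 1, and 0.33 on Ezh1-het 1. Control 3 was the lowest of 16 arrays for 10 of 31 members (10.87% of all genes), Ezh2-KO 1 was the lowest for another 10 (8.57% of all genes), and Ezh1-het 1 was the highest for 10 (9.91% of all genes). Within its own group, control 3 was lowest for 20 members (29% of all genes) and Ezh2-KO 1 for 24 (35.2% of all genes). The median SD over 16 arrays was 0.33 for members and 0.17 for all genes tested. The most variable members were Cdh16, a kidney cadherin, Tfcp2l1, Krt8, Gata3, the epithelial transcription factor Grhl2 and the claudin Cldn8, with SDs from 0.70 to 1.07.

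**Figure D1:**
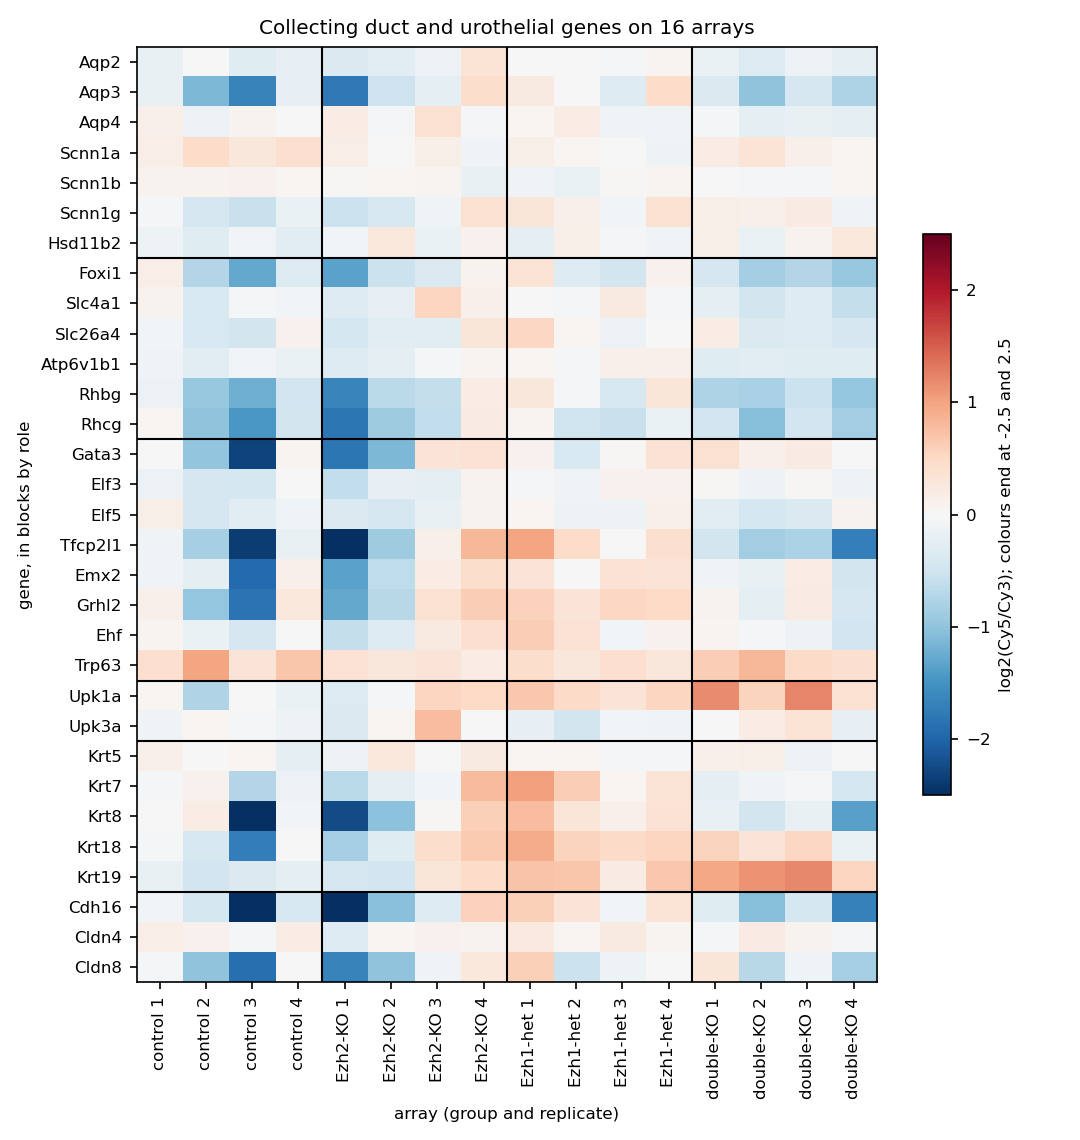
Log2 Cy5/Cy3 ratio of the 31 measured members (rows, in blocks by role) on the 16 arrays (columns, by group). Control 3 and Ezh2-KO 1 are each the lowest array for 10 members, Krt19 and Upk1a are above 0 on all 4 double-KO arrays, and Trp63 is above 0 on 16 of 16 arrays.

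Markers of other segments were low on the same arrays. The summed level is given as a mean log2 ratio over each list. The 10 proximal tubule markers averaged -1.87 on control 3, -2.13 on Ezh2-KO 1 and -2.41 on double-KO 4, against 0.41 on control 2. The 8 measured markers of the loop of Henle and distal tubule averaged -0.93 on control 3 and -0.81 on Ezh2-KO 1, and from -1.08 to -0.51 over the double-KO arrays. The 10 podocyte markers averaged -0.50 on control 3 and -0.35 on Ezh2-KO 1, and from 0.32 to 0.68 over the 4 Ezh1-het arrays. The 12 nephron progenitor markers went the other way, at 0.38 on control 3 and 0.22 on Ezh2-KO 1, with 0.22 on double-KO 4 as well, and control 3 was the highest of the 16. Smooth muscle and ureter mesenchyme markers (8 measured of 10) ranged only from -0.11 on control 3 to 0.42 on Ezh2-KO 3. The part of tissue composition in the members' differences was not tested.

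**Figure D2:**
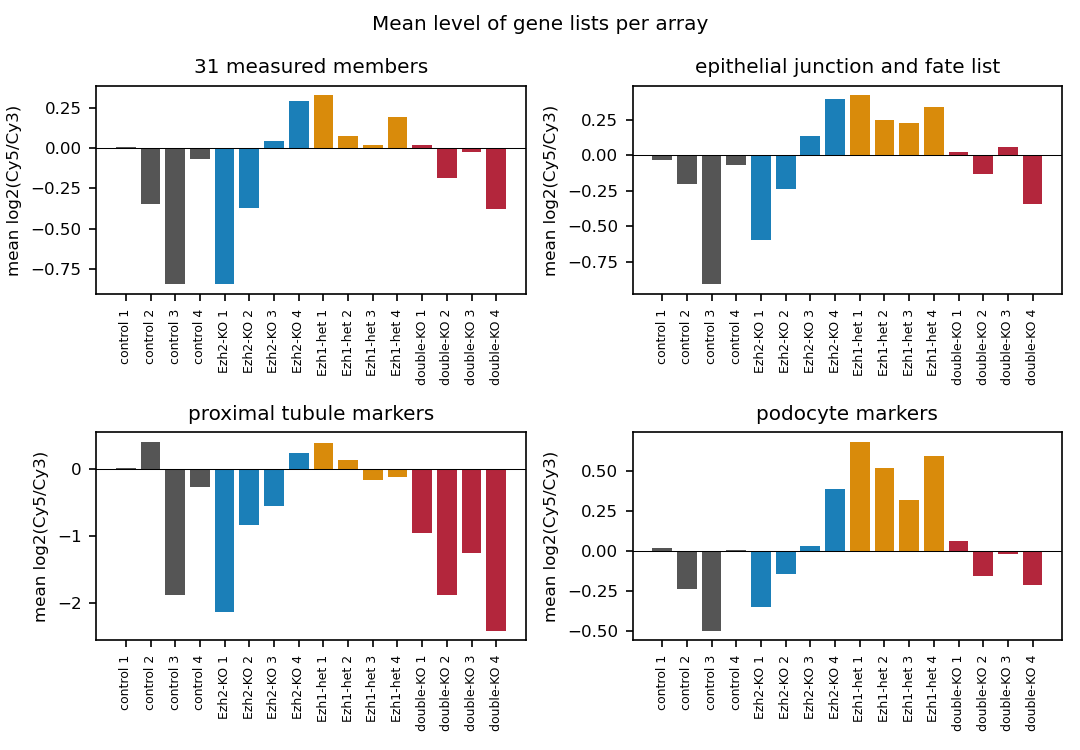
Mean log2 Cy5/Cy3 ratio per array for the 31 members, 22 epithelial junction and fate genes, 10 proximal tubule markers and 10 podocyte markers (bars coloured by group, axes of different range). Control 3 and Ezh2-KO 1 are below 0 in all 4 panels, and the 4 Ezh1-het arrays are above 0 for members, junction genes and podocyte markers.

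Ezh2-KO against control compares kidneys that lost Ezh2 in nephron progenitors with Ezh1 intact. None of the 31 members passed the test in Ezh2-KO against control (limma, adjusted p under 0.05), where 3.08% of all genes passed, and 2 members had an unadjusted p under 0.05, against 21.3% of all genes. No member had arrays that did not overlap between the groups, against 11.2% of all genes. The median difference was 0.11 for members and 0.06 for all genes. Scnn1a, the alpha subunit of the epithelial sodium channel, had a difference of -0.27 (SE 0.09, adjusted p = 0.111) at its brighter probe and 0.05 (SE 0.16) at its second probe, and Trp63, the transcription factor of basal epithelial cells, had -0.32 (SE 0.13, adjusted p = 0.170).

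That comparison took opposite signs on the slides. The members' median difference between Ezh2-KO and control was -0.28 on slide 1 and 0.52 on slide 2. Of 31 members, 24 were negative on slide 1 and positive on slide 2, as were 23.7% of all genes, and 0 had the reverse signs. Cdh16 differed by -1.60 on slide 1 and 1.86 on slide 2, and Tfcp2l1 by -1.31 and 1.76. A test of the difference between the slides, added after the values were seen, called 0 members over all genes tested (background 0.0128%). At an unadjusted p under 0.05 it held for 16 of 31 members, against 15.6% of all genes. Ezh2-KO 1 lies on slide 1 and control 3 on slide 2. Without these arrays, a setting added after the values were seen, the median difference was 0.11 and still 0 members passed.

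**Figure D3:**
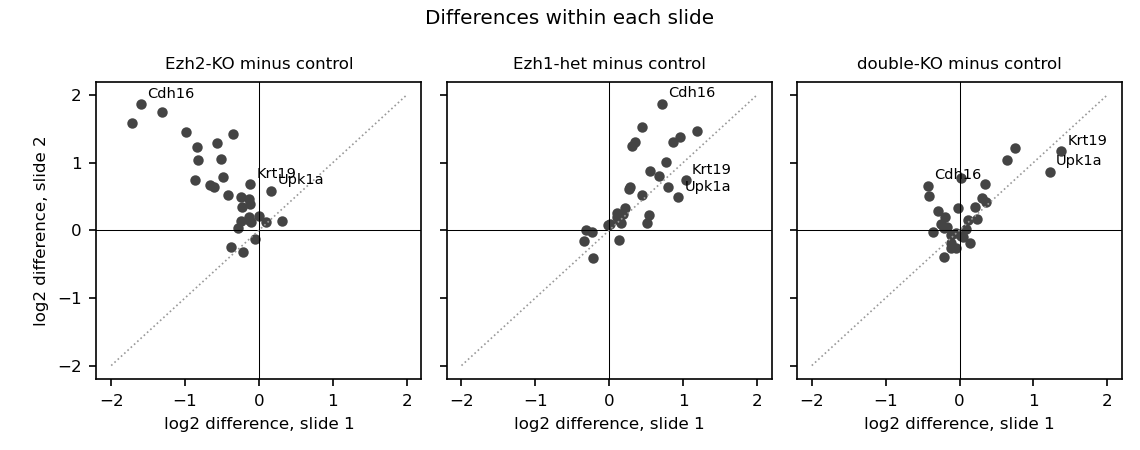
Log2 difference from control of each of the 31 members on slide 1 (x axis) and slide 2 (y axis), with the line of equality dotted. For Ezh2-KO 24 members lie below 0 on slide 1 and above 0 on slide 2, whereas Krt19 and Upk1a lie above 0 on both slides in Ezh1-het and double-KO.

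The other comparisons follow the loss of 1 or both germline Ezh1 alleles. In Ezh1-het against control 1 of 31 members passed the test, Krt19, and it was higher (7.81% of all genes passed in either direction and 5.91% were higher). At an unadjusted p under 0.05 there were 12 members, against 25.4% of all genes. In double-KO against control 2 passed, Krt19 and Upk1a, both higher (4.62% of all genes in either direction and 3.71% higher). At an unadjusted p under 0.05 there were 5, against 17.1% of all genes. In double-KO against Ezh2-KO 1 passed, Krt19, again higher (0.914% of all genes in either direction and 0.639% higher), and 5 had an unadjusted p under 0.05 (12.7% of all genes). In Ezh1-het against Ezh2-KO 0 members passed (0.0575% of all genes), and 3 had an unadjusted p under 0.05 (7.37% of all genes). The comparisons share their control or Ezh2-KO arrays, so their calls are not independent of each other.

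Keratins hold the member with the clearest difference. Krt19 is a small type I keratin of ductal and transitional epithelia. Krt19 had log2 ratios of -0.18, -0.48, -0.35 and -0.25 on control arrays 1 to 4. It had -0.42, -0.47, 0.30 and 0.47 on the Ezh2-KO arrays. On the Ezh1-het arrays it had 0.71, 0.70, 0.21 and 0.67, and on the double-KO arrays 0.97, 1.13, 1.20 and 0.53. All Ezh1-het and double-KO arrays lay above all 4 controls, and the double-KO arrays also lay above all 4 Ezh2-KO arrays, while Ezh2-KO overlapped control and split by slide. The group means were -0.32 ± 0.13 in control, -0.03 ± 0.49 for Ezh2-KO, 0.57 ± 0.24 for Ezh1-het and 0.96 ± 0.30 for double-KO (SD, n = 4 each).

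Krt19 rose 2.42-fold in double-KO over control (log2 difference 1.27, SE 0.20, adjusted p = 0.00107) and 1.85-fold in Ezh1-het over control (0.89, SE 0.20, adjusted p = 0.0156). Over Ezh2-KO it rose 1.98-fold in double-KO (0.99, SE 0.20, adjusted p = 0.0281). Ezh1-het was above Ezh2-KO by 0.60 (SE 0.20), which did not pass (adjusted p = 0.667). Between double-KO and Ezh1-het the difference was 0.38 with an interval from -0.04 to 0.81 and did not pass (adjusted p = 0.434). Within slides the double-KO difference from control was 1.38 and 1.165, and the Ezh1-het difference was 1.04 and 0.74. The difference from Ezh2-KO was 1.497 on slide 1 and 0.48 on slide 2. Without control 3 and Ezh2-KO 1 the differences from control were 1.26 in double-KO (adjusted p = 0.00179) and 0.88 in Ezh1-het (adjusted p = 0.0234), and that from Ezh2-KO was 0.86 and no longer passed (adjusted p = 0.0669). The Ezh1-het call was also lost without Ezh1-het 2 (0.85, adjusted p = 0.0519) or Ezh1-het 4 (0.86, adjusted p = 0.0531), and without controls 2 and 3 together (0.79, adjusted p = 0.167). The call against Ezh2-KO was lost without Ezh2-KO 1 or 2 or double-KO 1, 2 or 3, with differences from 0.84 to 0.98, and in a fit of these groups alone (0.99, adjusted p = 0.138), with the replicate number as a block (adjusted p = 0.0678) and on slide 2 alone (adjusted p = 0.577).

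Krt18 and Krt8, partners in one filament, passed the test in none of the 6 comparisons. Krt18 had -0.03, -0.40, -1.74 and 0.00 on control arrays 1 to 4, and 0.93, 0.57, 0.48 and 0.53 on the Ezh1-het arrays. On the Ezh2-KO arrays it had -0.83, -0.30, 0.44 and 0.66, and on the double-KO arrays 0.55, 0.31, 0.51 and -0.16. Its Ezh1-het arrays did not overlap control, and the difference of 1.17 (SE 0.35) did not pass the threshold (adjusted p = 0.0541). In double-KO the difference was 0.85 (SE 0.35, adjusted p = 0.223). Control 3 was its lowest array, and without control 3 and Ezh2-KO 1 the Ezh1-het difference was smaller, 0.77 (SE 0.21), and passed (adjusted p = 0.0442).

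Krt8 had -2.49 on control 3 and -2.24 on Ezh2-KO 1, and -1.35 on double-KO 4. Its other values lay between -1.02 on Ezh2-KO 2 and 0.78 on Ezh1-het 1. The difference from control was 0.99 (SE 0.58) in Ezh1-het and 0.05 (SE 0.58) in double-KO, and neither passed. Krt7, another keratin of simple epithelia, was at 0.71 (SE 0.26, adjusted p = 0.1055) in Ezh1-het and -0.00 (SE 0.26) in double-KO. Krt5, the basal cell keratin, was not well above background on any Ezh1-het array and on 10 of 16 arrays in all. Its fitted difference between Ezh1-het and control was 0.03 (SE 0.10).

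**Figure D4:**
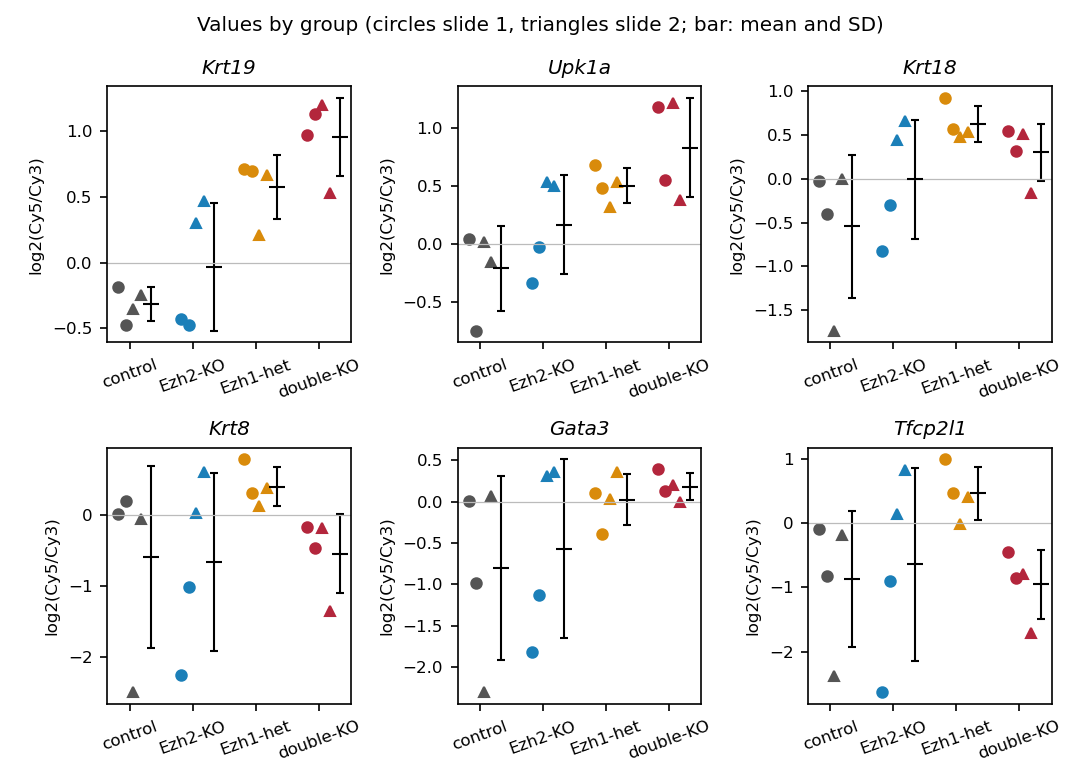
Log2 Cy5/Cy3 ratio of 6 members by group, with circles for slide 1, triangles for slide 2 and a bar for the mean and SD of 4 arrays. Krt19 of all Ezh1-het and double-KO arrays and Upk1a of the same arrays lie above every control array, whereas Krt8, Gata3 and Tfcp2l1 have control 3 or Ezh2-KO 1 as their lowest array.

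Among the uroplakins, Upk1a was well above background on 16 of 16 arrays. Upk1a had 0.04, -0.75, 0.02 and -0.16 on control arrays 1 to 4 and -0.34, -0.03, 0.53 and 0.50 on the Ezh2-KO arrays. It had 0.68, 0.48, 0.32 and 0.53 on the Ezh1-het arrays and 1.18, 0.55, 1.22 and 0.37 on the double-KO arrays. All Ezh1-het and double-KO arrays were above all controls, and the Ezh2-KO arrays overlapped each of the other groups. Upk1a rose 2.06-fold in double-KO over control (log2 difference 1.04, SE 0.23, adjusted p = 0.0128). The Ezh1-het difference was 0.72 (SE 0.23, adjusted p = 0.0668), and that between double-KO and Ezh2-KO was 0.67 (SE 0.23, adjusted p = 0.221). The double-KO call was lost without double-KO 3 (0.91, adjusted p = 0.0590) and without controls 2 and 3 together (0.89, adjusted p = 0.0887). Without control 3 and Ezh2-KO 1 the difference was 1.12 (adjusted p = 0.00640). Control 3 (0.02) lay above the control mean of -0.21, so leaving it out could not make the difference smaller. Control 2, the lowest array for Upk1a, has the lowest share of probes above background. Upk3a, a partner of the plaque, was above background on 6 arrays and on none of Ezh1-het, and its difference in double-KO was 0.14 (SE 0.18).

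Among principal cell genes, of 8 members 7 were measured, and 0 passed the test in any of the 6 comparisons. Aqp2, the apical water channel that vasopressin moves to the membrane, had -0.18, 0.01, -0.30 and -0.20 on control arrays 1 to 4. It had -0.35, -0.29, -0.14 and 0.34 on Ezh2-KO, 0.02, 0.02, -0.05 and 0.06 on Ezh1-het, and -0.17, -0.33, -0.15 and -0.24 on double-KO. The Ezh1-het arrays lay above the double-KO arrays, and both overlapped control. Its difference from control was 0.18 (interval -0.07 to 0.43) in Ezh1-het and -0.05 (interval -0.31 to 0.20) in double-KO. The basolateral water channel Aqp3 spread more widely, from -1.79 on Ezh2-KO 1 to 0.46 on Ezh1-het 4. Its difference from control was 0.89 (SE 0.39, adjusted p = 0.172) in Ezh1-het and 0.15 (SE 0.39) in double-KO. The water channel Aqp4 was well above background on 14 arrays at its brighter probe. Its differences from control there were 0.11, -0.01 and -0.19 in Ezh2-KO, Ezh1-het and double-KO. At its second probe, above background on 9 arrays, they were -0.12, -0.09 and -0.08.

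None of the 3 sodium channel subunits passed the test. Scnn1a had 0.16, 0.46, 0.29 and 0.42 on control arrays 1 to 4 and 0.15, 0.04, 0.02 and -0.13 on the Ezh1-het arrays, which all lay below control. The difference was -0.31 (SE 0.09, adjusted p = 0.0509), the only member difference in that comparison with lower, non-overlapping arrays. Its second probe, dimmer and above background on 16 arrays, had a difference of 0.21 (SE 0.16). The gamma subunit Scnn1g had a difference of 0.48 (SE 0.17, adjusted p = 0.0931) in Ezh1-het and 0.39 (SE 0.17, adjusted p = 0.244) in double-KO, and the beta subunit Scnn1b had -0.13 (SE 0.07) and -0.09 (SE 0.07). Hsd11b2, which shields the mineralocorticoid receptor from glucocorticoids, had differences of 0.23, 0.14 and 0.28 in Ezh2-KO, Ezh1-het and double-KO.

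Intercalated cell genes had 6 of 7 members measured, and 0 passed in any comparison. All 6 were positive in Ezh1-het against control (median 0.37), where 60.62% of all genes were positive. All 6 were negative in double-KO against control (median -0.11), where 51.5% of all genes were positive. These double-KO differences ran from -0.30 to only -0.005, so the shared sign includes values close to no difference. Foxi1, the transcription factor that specifies intercalated cells, had 0.34, -0.33, -0.45 and 0.12 on Ezh1-het arrays 1 to 4 and -0.41, -0.85, -0.74 and -0.94 on the double-KO arrays. On control it had 0.17, -0.72, -1.28 and -0.34, and on Ezh2-KO -1.34, -0.54, -0.36 and 0.08. The control and Ezh2-KO arrays overlapped both other groups. The ammonia transporters Rhbg and Rhcg were lowest on Ezh2-KO 1, at -1.64 and -1.81.

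Slc4a1, the basolateral anion exchanger of acid-secreting intercalated cells, is also an erythrocyte membrane protein. It had -0.25, -0.46, -0.32 and -0.60 on the double-KO arrays and from -0.38 to 0.08 on control (difference -0.30, SE 0.15, adjusted p = 0.338). The 7 measured erythroid markers of 13 averaged -0.14, -0.82, -0.39 and -1.75 on the same double-KO arrays and from -0.20 to 0.18 on control. The part of blood content in the Slc4a1 values was not tested.

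Transcription factors had 8 of 8 members measured, and 0 passed in any comparison. Gata3, which maintains the nephric duct and ureteric bud, had 0.01, -0.99, -2.305 and 0.07 on control arrays 1 to 4 and -1.81, -1.13, 0.31 and 0.36 on Ezh2-KO. It had 0.10, -0.39, 0.03 and 0.36 on Ezh1-het and 0.39, 0.13, 0.21 and -0.00 on double-KO. The mutant groups with Ezh1 loss were narrow and overlapped the upper control arrays, and the difference in double-KO was 0.98 (interval -0.06 to 2.03, adjusted p = 0.329). Without control 3 and Ezh2-KO 1 it was 0.48 (SE 0.32). Tfcp2l1 had 0.99, 0.46, -0.02 and 0.40 on Ezh1-het, above all control arrays, which had -0.09, -0.82, -2.38 and -0.18. Its difference was 1.33 (SE 0.60, adjusted p = 0.183) in Ezh1-het and -0.09 (SE 0.60) in double-KO. Grhl2 was likewise above control on all Ezh1-het arrays, with a difference of 1.08 (SE 0.42, adjusted p = 0.127).

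The ETS factors Elf3, Elf5 and Ehf had differences between 0.15 and 0.38 in Ezh1-het and between -0.07 and 0.20 in double-KO, and none passed. Dimmer Ehf probes past the filter had 0.53 (SE 0.17, adjusted p over probes = 0.0710) and 0.25 (SE 0.14) in Ezh1-het. In double-KO these probes had 0.09 and 0.04. Emx2, needed for ureteric bud growth, had 0.78 (SE 0.40) in Ezh1-het and 0.40 (SE 0.40) in double-KO. Trp63 was above 0 on 16 of 16 arrays at its brighter probe, the control 1 array included, and it is the only member of which that is true. A second, dimmer Trp63 probe, of another transcript accession, was well above background on 1 array and did not pass the filter. At the brighter probe the Trp63 differences were -0.25 in Ezh1-het and -0.03 in double-KO. They turned to 0.35 (adjusted p = 0.0192) and 0.54 (adjusted p = 0.00446) when arrays were centred on the median in place of loess. That setting put the median of all genes at 0.44 and 0.38.

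Adhesion and junction genes had 3 of 3 measured, and 0 passed in any comparison. Cdh16 had -0.06, -0.44, -3.06 and -0.40 on control arrays 1 to 4 and -2.65, -1.05, -0.32 and 0.58 on Ezh2-KO. It had 0.59, 0.33, -0.06 and 0.35 on Ezh1-het and -0.30, -1.06, -0.44 and -1.69 on double-KO. The Ezh1-het arrays lay above control at this probe, with a difference of 1.29 (SE 0.64, adjusted p = 0.217). A second, dimmer Cdh16 probe, of another transcript accession and above background on 16 arrays, went lower, by -0.34 (SE 0.09) in Ezh1-het and -0.33 (SE 0.09) in double-KO. With p-values adjusted over probes both passed (adjusted p = 0.0329 and 0.0463), so the direction for Cdh16 depends on the probe. Cldn4 and Cldn8, claudins of the paracellular chloride path, had differences of 0.05 (SE 0.10) and 0.71 (SE 0.45) in Ezh1-het.

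**Figure D5:**
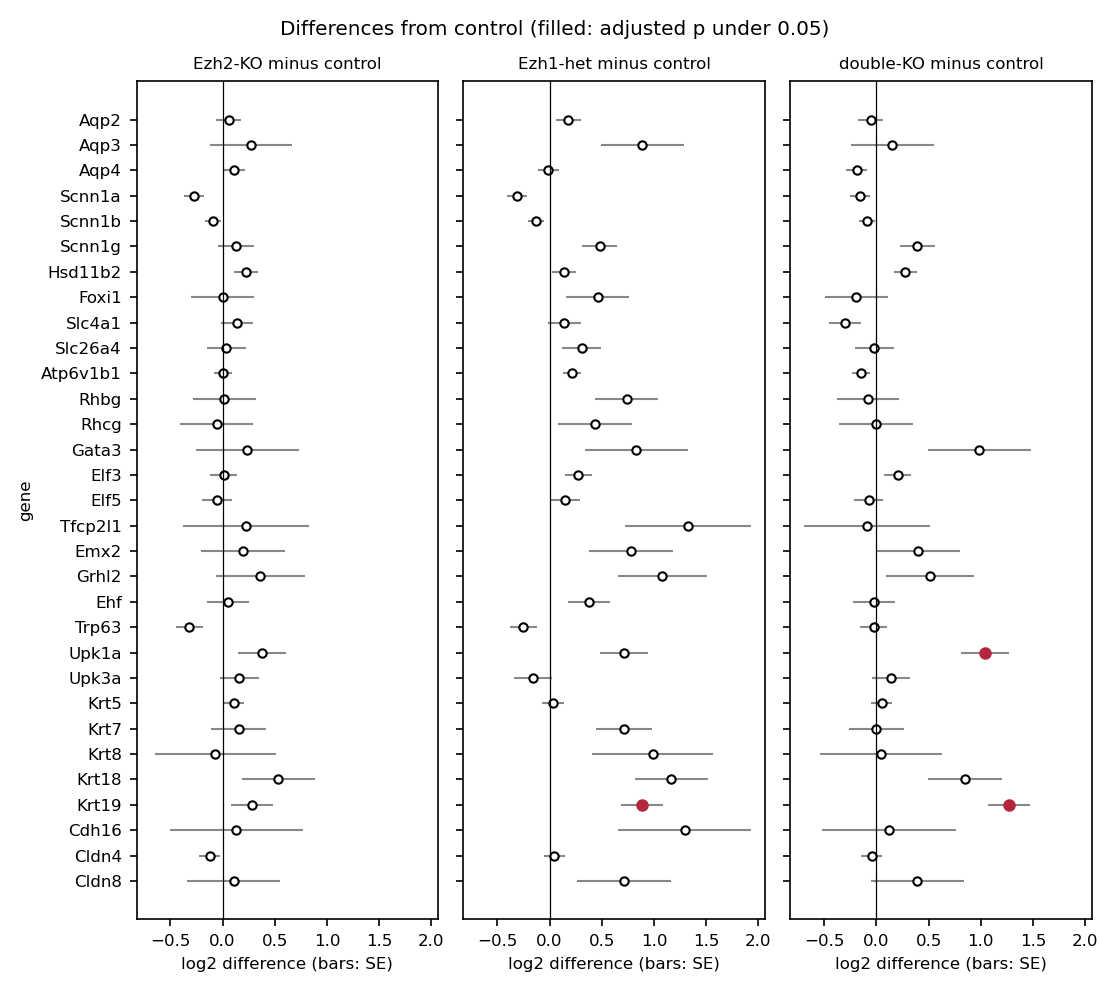
Log2 difference from control of the 31 measured members in the 3 mutant groups, with bars of 1 standard error and filled points where the adjusted p was under 0.05. The filled points are Krt19 in Ezh1-het and Krt19 and Upk1a in double-KO, and the widest bars belong to Cdh16, Tfcp2l1 and Krt8.

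Counting arrays that did not overlap, Ezh1-het stood apart from control in 8 members, 25.81% against 17.9% of all genes. They were higher in 7 (12.6% of all genes were higher), namely Krt19, Krt18, Upk1a, Tfcp2l1, Grhl2, Cdh16 and Atp6v1b1, and lower in Scnn1a (5.23% of all genes were lower). Atp6v1b1 was well above background on 4 Ezh1-het arrays and on 1 array of each other group, so it passed the filter only through Ezh1-het. Double-KO stood apart from control in 2 members, 6.45% against 9.34% of all genes, both higher (6.35% of all genes). Double-KO stood apart from Ezh2-KO in 2, Krt19 and Trp63, both higher (3.09% of all genes, and 7.57% in either direction), and Ezh1-het from Ezh2-KO in 0 (4.55% of all genes). The median difference of members from control was 0.44 in Ezh1-het and -0.00 in double-KO, against 0.05 and 0.01 over all genes. Without control 3 and Ezh2-KO 1 these medians were 0.24 and -0.11.

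The direct comparison of double-KO with Ezh1-het was added after the values were seen. No member passed (0.377% of all genes did), and 6 had an unadjusted p under 0.05 (13.7% of all genes). In 10 of 31 members the double-KO arrays were all lower (32.26%, against 9.83% of all genes lower and 12.7% in either direction): Aqp2, Aqp3, Slc4a1, Atp6v1b1, Rhbg, Tfcp2l1, Grhl2, Krt7, Krt8 and Cdh16. The second Cdh16 probe differed by 0.002 (SE 0.09), so the Cdh16 results here hold for the brighter probe. The member nearest to the threshold was Atp6v1b1, a proton pump subunit, at -0.36 (SE 0.09, adjusted p = 0.0787). Because Atp6v1b1 passed the filter only through its Ezh1-het arrays, its lower double-KO values are no independent support for a difference. The median difference was -0.32 for members and -0.03 for all genes, and it was -0.28 on slide 1 and -0.29 on slide 2. Leaving control 3 and Ezh2-KO 1 out of the estimate of spread brought 4 members past the threshold, Atp6v1b1, Cdh16, Rhbg (-0.82, adjusted p = 0.0379) and Tfcp2l1 (-1.41, adjusted p = 0.0254), where 4.45% of all genes passed, and a fit of these groups alone brought 10, where 6.6% of all genes passed. The proximal tubule markers had a median difference of -1.83, podocyte markers -0.69 and erythroid markers -1.07 in the same comparison, and their part in the members' values was not tested.

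Other genes of these epithelia came from lists chosen with earlier results known. Of 19 measured principal cell and hormone response genes (20 listed), the test against control was passed by 1 for Ezh2-KO, 3 for Ezh1-het and 1 for double-KO, where 3.08%, 7.81% and 4.62% of all genes passed. Ptger4, a prostaglandin E2 receptor, was higher by 0.61 (SE 0.17, adjusted p = 0.0418) in Ezh1-het and 0.67 (SE 0.17, adjusted p = 0.0358) in double-KO. Ptges, a synthase of that prostaglandin, fell by 0.30 on the log2 scale in Ezh1-het. The largest difference among the 3 list genes that passed in Ezh1-het was that of Tmem45b, higher by 0.81 (SE 0.24, adjusted p = 0.0465). Adcy6, an adenylyl cyclase, rose by 0.43 in Ezh2-KO. Of 20 measured intercalated cell genes (24 listed), 1 passed in Ezh2-KO against control, where 3.08% of all genes did, and 0 passed in the other 5 comparisons. It was Mib1, a ubiquitin ligase of the Notch pathway, which fell by 0.46 on the log2 scale.

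The ureteric bud lineage list held 21 genes, of which 18 were measured. Its member Foxa2, a forkhead factor, rose by 0.54 (SE 0.14, adjusted p = 0.0322) in Ezh1-het and 1.32 (SE 0.14, adjusted p = 3.384e-05) in double-KO, and the double-KO level was also above Ezh1-het by 0.79 (SE 0.14, adjusted p = 0.0207). Of 14 measured urothelial and squamous genes (20 listed), 1 was higher in Ezh1-het and 2 in double-KO, where 5.91% and 3.71% of all genes were higher. Foxa1, a forkhead factor of the urothelium, rose by 1.08 (SE 0.13, adjusted p = 0.000108) in double-KO over control and by 0.86 (SE 0.13, adjusted p = 0.004875) over Ezh1-het. Klf5, another urothelial factor, rose by 0.42 in double-KO.

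All 22 epithelial junction and fate genes were measured, and against control 1 was higher for Ezh2-KO, 6 for Ezh1-het and 1 for double-KO, where 2.4%, 5.91% and 3.71% of all genes were higher. Cldn3, a tight junction claudin, rose by 1.78 (SE 0.29, adjusted p = 0.00227) in Ezh1-het and 1.59 (SE 0.29, adjusted p = 0.00365) in double-KO. Spint1, an inhibitor of membrane serine proteases, rose by 1.47 (SE 0.40), and St14, the protease matriptase, by 1.06 (SE 0.27), both in Ezh1-het. The list averaged -0.91 on control 3 and -0.60 on Ezh2-KO 1, and from 0.23 to 0.42 over the Ezh1-het arrays. The median difference of the list in Ezh1-het was 0.60, and 6 of 10 podocyte markers were higher in the same comparison, against 5.91% of all genes.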

How the data were processed

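RNA of whole kidneys was measured on 16 Agilent arrays with 2 colours (4 groups of 4). The scanner files hold median spot and background intensities, extracted per the file headers with Agilent Feature Extraction 10.7.3.1, which the submitters' processing notes name too. Mean signals had been planned as the input, and medians were used because the files hold them. The deposited LogRatio is a log10 value of the processed Cy5 signal against the processed Cy3 signal. The authors' value table matched it within 0.005 on every array, so it has the same scale and direction, with a median of 0 on every array.

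Median intensities were corrected with normexp (offset 50) and normalised by loess within arrays in limma 3.58.1 under R 4.3.3, with control spots at weight 0 and outlier spots left out. The filter kept probes whose Cy5 signal was well above background on 4 or more of the 16 arrays, symbols came from a RefSeq table (GRCm38.p6), and the brightest probe stood for a gene. Group differences were fitted over all 16 arrays with lmFit and eBayes, with Benjamini-Hochberg adjustment over 15646 genes and a threshold of 0.05. Intervals are 95%. P-values reflect only the spread among the deposited samples, and array number, not read depth, limits the precision. The members and lists were chosen with earlier results of these data known. All 36 members are accounted for, those called get values per array, and other genes are named from the lists, at most the 3 with the largest difference per list and comparison; the other members given per array were chosen after their values were seen. The fitting script was tested on simulated data.

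Same-numbered samples of different groups did not deviate together (correlations from -0.48 to 0.51, over 0.1 in 8 of 24 pairs), so the numbers were not taken as pairs. Alternatives changed the background correction, normalization, filter, probe rule, variance model, array weights, blocks, slides and arrays left out. One result of the ureteric bud lineage list is not reported here, and that list's counts are left out with it.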

Additional observations from a re-analysis of the deposited data

Results flagged for a closer look

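In 9 of 124 sets of 4 arrays (31 members in 4 groups), one array stood far from the other 3 by Dixon's ratio at its 95% critical value, where chance gives about 1 in 20. Control 3 was far below the other controls in Krt8 (-2.49), Cdh16 (-3.06) and Emx2 (-1.94). Ezh2-KO 1 was far below its group in Cldn4 (-0.33). Krt19 was far lower on Ezh1-het 3 (0.21) than on the other Ezh1-het arrays, which lay between 0.67 and 0.71. Emx2 was lower on Ezh1-het 2 (-0.0189). Slc26a4, the anion exchanger pendrin, was higher on double-KO 1 (0.19) than on the other double-KO arrays. Scnn1b was lower on control 4 (0.0455) and on Ezh2-KO 4 (-0.19).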

How the results depend on the processing

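Counts of members past the threshold changed as follows, and the cause was not tested unless stated. Median centring, which moved the median of all genes in Ezh2-KO, Ezh1-het and double-KO against control from 0.06, 0.05 and 0.01 to 0.41, 0.44 and 0.38, gave 1, 14 and 7 members, and Trp63 reversed to 0.35 in Ezh1-het and 0.54 in double-KO. It also called 43.7%, 51.4% and 34.3% of all genes. In Ezh1-het against control the count was 2 with scale normalization (added after the values were seen), the slide block, only the 2 groups or every probe tested (9.44%, 8.88%, 6.11% and 6.35% of all features called, against 7.81%). It was 3 with array weights (14.2%) or without control 3 and Ezh2-KO 1 (also added, 6.4%), and 0 on slide 2 alone (0.236%) or without controls 2 and 3 (1.5%). In double-KO against control it was 3 with every probe tested (3.09% of probes, Cdh16 lower beside Krt19 and Upk1a), 1 on slide 1 alone (1.46% of all genes, against 4.62%) or without controls 2 and 3 (2.88%), and 0 on slide 2 alone (0.722%). In Ezh1-het against Ezh2-KO it was 1 with array weights (1.39% of all genes, against 0.0575%) and 10 on slide 1 alone (5.62%), where Ezh2-KO 1 lies. In double-KO against Ezh2-KO it was 2 with the deposited log ratio (0.812% of all genes, against 0.914%) or array weights (4.49%), and 0 with only the 2 groups (0.422%), the replicate block (0.78%, Krt19 adjusted p = 0.0678), slide 2 alone (0.0831%), or without control 3 and Ezh2-KO 1 (1.16%). In double-KO against Ezh1-het it was 1 with array weights (4.83% of all genes, against 0.377%) or without controls 2 and 3 (2.01%), 4 without control 3 and Ezh2-KO 1 (4.45%), and 10 with only the 2 groups (6.6%). A slide alone has fewer samples. Leaving out 1 array of 16 gave 0 to 0, 0 to 5, 1 to 2, 0 to 0, 0 to 1 and 0 to 1 members in the 6 comparisons in the order Ezh2-KO, Ezh1-het and double-KO against control, Ezh1-het and double-KO against Ezh2-KO, and double-KO against Ezh1-het. Over all genes the counts of 482, 1222, 723, 9, 143 and 59 then ranged over 202 to 515, 487 to 1484, 441 to 922, 3 to 35, 84 to 199 and 26 to 285. The highest Ezh1-het count, 5, came without Ezh2-KO 4. The replicate block changed no other count of members. Over single members and settings, 5910 values kept their side of the threshold, with the same sign or a change of sign smaller than 1 standard error. A further 67 newly passed, 18 no longer passed, 129 changed sign by more without passing in either setting, and 2 reversed (Trp63, above). Aquantile leaves log ratios as they are and so is no test of them. Signal over background limits Upk3a, Atp6v1b1, Slc26a4, Elf5 and Krt5, which were well above background on 6, 7, 8, 8 and 10 arrays.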
